A study of Mus musculus with 34 samples.

Results

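The genes described here are 9 markers of embryonic macrophages, *Csf1r*, *Cx3cr1*, *Adgre1*, *Mrc1*, *C1qa*, *C1qb*, *C1qc*, *Cd68* and *Tyrobp*, read from an mRNA-seq table of mouse limb buds. They were chosen by name, as genes of the cells that clear dying cells, and all 9 were found among the 22040 genes of the table. RNA came from limb buds at E11.5, with 3 wild type (WT) libraries and 3 libraries of conditional knockouts (CKO). The CKO embryos were *Prrx1-Cre;Hnrnpk fl/fl*, so that the Cre recombinase removed the floxed exons of *Hnrnpk*, an RNA-binding and DNA-binding protein. The labels call the controls *Hnrnpk* WT and give no further allele. *Prrx1-Cre* acts in limb bud mesenchyme and in the calvarium, and only incompletely in the hindlimb, and the libraries hold whole limb bud tissue rather than sorted cells. *Hnrnpk* itself measured 193, 195 and 185 FPKM in WT and 127, 142 and 135 FPKM in CKO. FPKM is the number of fragments on a gene divided by its exon length and by a divisor for each library. As deposited, that divisor was below the reads on the listed genes in CKO replicates 2 and 3 and above them in the other 4 libraries. *Hnrnpk* was therefore lower in every CKO library (log2 fold change −0.50 ± 0.13 (SE), adjusted *p* = 0.334 with limma, and 0.0575 with the replicate number as a block).

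Macrophages are the first immune cells to settle in the embryo, where they arise from yolk sac and fetal liver progenitors. They survive on signals through the receptor CSF1R, patrol tissue with the help of chemokine receptors, and take up apoptotic cells by a process called efferocytosis. In a growing limb, where cells die as digits and joints take shape, they are the professional phagocytes that remove the corpses. Bulk libraries count RNA from all cells of the tissue together, so fewer cells of a type and less RNA per cell cannot be told apart here.

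The 3 genes of complement C1q lie side by side on chromosome 4 (GRCm38), all on the minus strand. *C1qb* spans chr4:136880129-136886187, *C1qc* spans chr4:136889804-136893065 and *C1qa* spans chr4:136895917-136898803, with 3616 bases between *C1qb* and *C1qc* and 2851 bases between *C1qc* and *C1qa*. The other members lie apart, *Cd68* at chr11:69664213-69666153 and *Cx3cr1* at chr9:119901616-120069879 on the minus strand, and *Mrc1* at chr2:14229392-14332057, *Adgre1* at chr17:57358691-57483527 and *Tyrobp* at chr7:30413760-30417585 on the plus strand. Promoter windows from RefSeq (GRCm38.p6, 250 bases before to 50 after each start) were found for 5 members, *Cx3cr1*, *Mrc1*, *C1qb*, *C1qc* and *Cd68*. The bases before the start of *C1qb* and *C1qc*, whose levels moved together among libraries, and of *Cd68*, whose levels did not move with theirs, are printed 5′ to 3′ on the strand of each gene, the minus strand. Only bases before both the RefSeq and the GENCODE start are shown, which leaves 99 for *C1qc*. They come from chr4:136886201-136886450, chr4:136893066-136893164 and chr11:69666171-69666420. Capitals mark GAGGAA or its reverse complement TTCCTC, a core sequence that the myeloid factor PU.1, the product of *Spi1*, is known to recognise.
C1qb: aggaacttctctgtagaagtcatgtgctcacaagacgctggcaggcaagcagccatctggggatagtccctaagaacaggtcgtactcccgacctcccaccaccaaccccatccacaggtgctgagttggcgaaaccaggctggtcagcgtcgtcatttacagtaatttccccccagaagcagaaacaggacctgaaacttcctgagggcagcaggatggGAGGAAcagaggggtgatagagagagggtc
C1qc: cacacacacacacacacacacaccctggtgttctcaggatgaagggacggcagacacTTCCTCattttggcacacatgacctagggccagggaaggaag
Cd68: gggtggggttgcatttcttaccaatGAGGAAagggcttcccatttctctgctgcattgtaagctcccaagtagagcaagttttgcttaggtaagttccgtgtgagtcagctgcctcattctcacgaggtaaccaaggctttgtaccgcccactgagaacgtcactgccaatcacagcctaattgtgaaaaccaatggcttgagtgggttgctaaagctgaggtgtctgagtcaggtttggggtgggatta

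Searched on both strands of the whole windows, GAGGAA matched 1 time in *C1qb*, 1 time in *C1qc*, 2 times in *Cd68*, 3 times in *Mrc1* and not in *Cx3cr1*. The match of *Cd68* that is not printed lies after its start. Of all 32817 windows, 28.3% held it. The longer GAGGAAGT, which contains it, matched 1 time in *C1qc* and in none of the other 4, against 3.20% of all windows. The short core GGAA, contained in both, stood in 96.0% of windows and in all 5 of these. Matches of this kind describe letters, and binding was not measured at them here.

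No member passed an adjusted *p* value of 0.05 in CKO against WT. Of the 12305 genes tested, 0.0650% passed, and with the replicate block, in which libraries of the same number are compared, 2.81% of genes and again 0 of 9 members passed. By sign alone, 7 members had a higher mean in CKO and 2, *Cx3cr1* and *Cd68*, a lower one, with a median log2 difference of 0.23 against 0.0048 over all genes tested. Within replicate numbers 1, 2 and 3 the median of the members was 0.045, 0.67 and −0.26. At an unadjusted *p* value of 0.05 the fit without the block passed 0 members and 8.31% of all genes. The WT and CKO values of every member overlapped, whereas 14.5% of all genes had groups that did not overlap. Between 30 and 682 reads stood behind each member in each library, and 17140882 to 24624432 reads in all on the listed genes.

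*C1qa*, *C1qb* and *C1qc* encode the chains of C1q, which binds to dying cells and immune complexes and which macrophages make themselves. *C1qb* had 4.03, 6.03 and 7.25 FPKM in WT replicates 1, 2 and 3 and 4.98, 9.65 and 7.75 FPKM in the CKO replicates of the same numbers. Its CKO value was above the WT value of the same number in all 3 numbers, as for 18.2% of all genes tested, but the lowest CKO library lay below 2 of the WT libraries. The log2 fold change was 0.35 ± 0.29 (SE, adjusted *p* = 0.818, limma), with a 95% interval of −0.31 to 1.02. With the block the interval was 0.08 to 0.63 and the unadjusted *p* value from limma 0.0164, which came to 0.165 after adjustment.

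*C1qa* had 2.40, 3.01 and 4.28 FPKM in WT and 2.44, 6.18 and 3.19 FPKM in CKO. CKO replicate 2 stood far above the other 5 libraries and the other 2 CKO values lay within the WT range (log2 fold change 0.21 ± 0.35, adjusted *p* = 0.914, limma). Without CKO replicate 2 the difference of *C1qa* was −0.17. *C1qc* had 1.49, 2.81 and 3.68 FPKM in WT and 2.43, 4.08 and 3.19 FPKM in CKO. The groups overlapped, and WT replicate 1 was the lowest library (log2 fold change 0.33 ± 0.33, adjusted *p* = 0.855, limma). Without WT replicate 1 the difference of *C1qc* was −0.022.

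*C1qa* stood at 0.998 to 1.61 times the FPKM of *C1qc*, the widest of the 3 ratios between chains. *C1qc* stood at 0.371 to 0.508 times the FPKM of *C1qb*, with the WT ratios of 0.371 to 0.508 enclosing the CKO ratios of 0.412 to 0.489. *C1qa* stood at 0.411 to 0.640 times *C1qb*. Over the 6 libraries the log2 levels of the chains had Pearson correlations of 0.83 to 0.95, given as a description, since the points share tissue, depth and replicate numbers.

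Of the receptors, *Csf1r*, the receptor for CSF1 and IL34, had 4.05, 3.62 and 5.19 FPKM in WT and 4.18, 4.74 and 4.31 FPKM in CKO. All 3 CKO libraries lay inside the WT range. The log2 fold change was 0.05 ± 0.16 (adjusted *p* = 0.952, limma), and its 95% interval ran from 0.803-fold to 1.34-fold, the narrowest of the 9. The sign of this difference turned with the scaling of the libraries (−0.051 when they were rescaled on genes outside globin). That rescaling also moved the median of all genes to −0.10, so *Csf1r* stayed above that median. *Csf1r* lies on the plus strand at chr18:61100598-61132149 and shares 873 exon bases (15.1%) with *Hmgxb3* on the other strand. The libraries were stranded, but whether the counting used the strand was not given in the sources used here.

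*Cx3cr1*, the receptor for fractalkine and a marker of tissue macrophages and their precursors, had 1.29, 1.002 and 1.25 FPKM in WT and 1.48, 1.02 and 0.847 FPKM in CKO. The highest and the lowest library were both CKO (log2 fold change −0.10 ± 0.23, adjusted *p* = 0.938, limma). *Tyrobp*, the adaptor DAP12 that passes signals from TREM2 and related receptors, had 3.49, 5.89 and 5.57 FPKM in WT and 3.48, 9.55 and 7.42 FPKM in CKO. The 2 libraries numbered 1 were nearly equal and were the lowest of their groups, while CKO replicates 2 and 3 exceeded every WT library (log2 fold change 0.36 ± 0.37, adjusted *p* = 0.856, limma). With the block the interval for *Tyrobp* was 0.07 to 0.66, with an unadjusted *p* value from limma of 0.0208 and an adjusted one of 0.183. Without CKO replicate 2 the difference of *Tyrobp* was 0.065 and that of *C1qb* 0.15, and without CKO replicate 1 they were 0.78 and 0.62. *C1qb* and *Tyrobp* were thus the 2 members with an unadjusted *p* value under 0.05 with the block, where 18.4% of all genes had one.

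Over all genes tested, the replicates numbered 1 deviated from their group means together (correlation 0.64) and against those numbered 2 and 3 of the other group (−0.60 to −0.37). The opposite sign follows in part from deviations within a group summing to 0. The comparison was therefore also run on replicates 2 and 3 alone, without the block. There *Tyrobp* passed (log2 fold change 0.55 ± 0.14, adjusted *p* = 0.0053, limma) as the only member that did so, beside 15.0% of all genes. *C1qb* had 0.38 ± 0.14 there (adjusted *p* = 0.0548, limma). The subset was chosen from these same data and leaves out the libraries numbered 1, in which *Tyrobp* was lowest within each group. With all libraries 0.0650% of genes passed, so the call of *Tyrobp* describes this subset only.

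*Adgre1*, which encodes the macrophage surface protein F4/80, had 0.513, 0.798 and 1.70 FPKM in WT and 0.902, 1.95 and 1.18 FPKM in CKO. With all libraries it had the largest difference of the members and the widest interval (log2 fold change 0.47 ± 0.42, adjusted *p* = 0.837, limma, 95% interval 0.700-fold to 2.74-fold). The difference was 0.12 without WT replicate 1 and 0.89 without WT replicate 3. As few as 30 reads stood behind it, in WT replicate 1. *Mrc1*, the mannose receptor CD206 of resident macrophages, had 3.08, 2.28 and 3.67 FPKM in WT and 2.82, 5.59 and 2.69 FPKM in CKO. CKO replicates 1 and 3 lay inside the WT range and CKO replicate 2 above it (log2 fold change 0.23 ± 0.30, adjusted *p* = 0.884, limma). Without CKO replicate 2 the difference of *Mrc1* was −0.10.

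*Cd68*, a glycoprotein of the lysosomal membrane used to mark phagocytes, had 10.3, 7.01 and 5.18 FPKM in WT and 7.47, 6.32 and 5.44 FPKM in CKO. Here the libraries numbered 1 were the highest of their groups, the opposite of *Tyrobp* and *C1qb* (log2 fold change −0.18 ± 0.25, adjusted *p* = 0.893, limma). Without WT replicate 1 the difference of *Cd68* was 0.075.

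**Figure D1:**
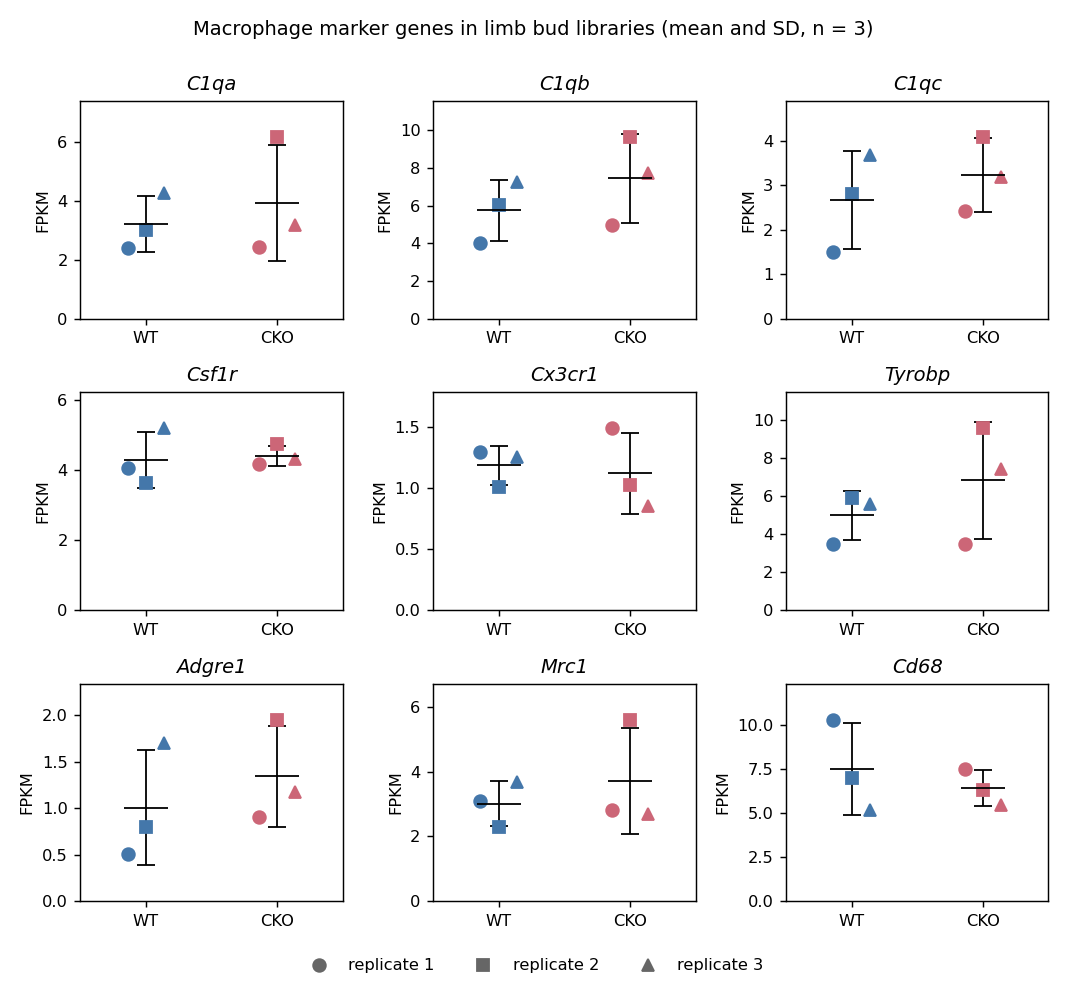
FPKM of the 9 members in the 3 WT (blue) and 3 CKO (red) libraries, with a marker shape for each replicate number and the mean and SD (n = 3) of each group in black. The groups overlap in every panel, and CKO replicate 2 (square) is the highest library for *C1qa*, *C1qb*, *C1qc*, *Tyrobp*, *Adgre1* and *Mrc1* but not for *Csf1r*, *Cx3cr1* or *Cd68*.

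**Figure D2:**
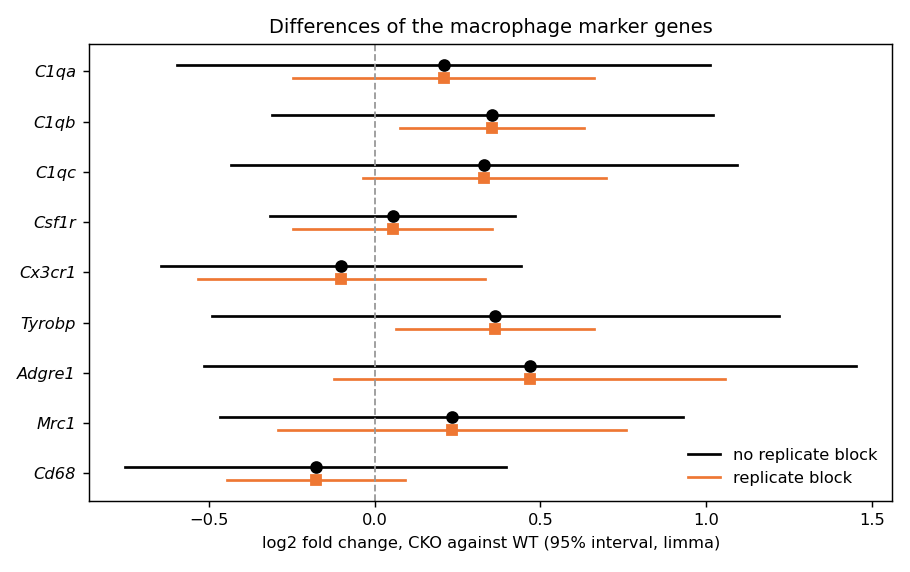
Log2 fold change of each member, CKO against WT, with its 95% interval from limma without the replicate block (black) and with it (orange). Without the block all 9 intervals cover 0, and with it those of *C1qb* (0.08 to 0.63) and *Tyrobp* (0.07 to 0.66) do not.

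The upper bounds of the 95% intervals without the block ran from 1.32-fold for *Cd68* to 2.74-fold for *Adgre1*, so a rise of 2-fold lay inside the interval of *Adgre1*, *C1qa*, *C1qb*, *C1qc* and *Tyrobp* and outside that of *Csf1r*, *Cx3cr1*, *Mrc1* and *Cd68*. In both groups of every member the spread between replicates was wider than the counting of reads alone would give. For *Adgre1* the coefficient of variation was 61.6% in WT against 11.9% from counting, and for *Csf1r* in CKO 6.56% against 4.39%.

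The order of the levels was set by mean FPKM over the 6 libraries, in which fragments are divided by exon length. *Cd68* (6.95 FPKM) and *C1qb* (6.61 FPKM) were highest, then came *Tyrobp* (5.90 FPKM), *Csf1r* (4.35 FPKM), *C1qa* (3.58 FPKM), *Mrc1* (3.36 FPKM), *C1qc* (2.95 FPKM), *Adgre1* (1.17 FPKM) and *Cx3cr1* (1.15 FPKM). Among neighbours in this order, *C1qb* was above *Tyrobp* and *C1qc* above *Adgre1* in 6 of 6 libraries. The other 6 neighbouring pairs changed places in at least 1 library, and *Cd68* was above *C1qb* in 3 of 6.

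Within the set the libraries fell into different orders for different members. *C1qa*, *C1qb*, *C1qc*, *Tyrobp* and *Adgre1* had correlations of 0.75 to 0.95 among themselves over the 6 libraries. *Cd68* had −0.90 to −0.20 with the 7 members other than *Cx3cr1*, and *Cx3cr1* had −0.81 to −0.38 with the C1q chains and *Tyrobp*. These values describe 6 libraries that share replicate numbers. Relative to *Csf1r*, *Adgre1* ranged from 0.127 to 0.411, *Tyrobp* from 0.831 to 2.02 and *Cd68* from 0.998 to 2.54, so that a single library scaling did not bring the members to a common level.

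CKO replicate 2 was the library with the highest summed level of the members, 49.1 FPKM, against 30.2 and 36.0 FPKM in CKO replicates 1 and 3 and 30.6, 32.5 and 37.8 FPKM in WT. It was also the library with the most globin RNA. The 7 globin genes took 32.4% of the summed FPKM of all genes in CKO replicate 2, against 11.7% and 23.5% in the other CKO libraries and 13.7% to 20.6% in WT. Globin and 7 other erythroid genes (among them *Slc4a1* and *Alas2*, at 237 and 231 FPKM) had a higher mean in CKO for 7 of 7 genes each, with medians of 0.43 and 0.37 on the log2 scale, and 0 of these genes passed with or without the block. Among globin genes *Hbb-y*, *Hbb-bh1* and *Hba-x* were the most abundant, and differences ran from 0.29 for *Hbb-bh1* to 0.74 for *Hbb-bt*. The summed level of the other erythroid genes was 538 to 609 FPKM in WT and 450, 1128 and 803 FPKM in CKO, with differences from 0.22 for *Tfrc* to 0.45 for *Slc4a1*. Rescaled on the genes outside globin, the summed level of the members was 33.6, 42.5 and 33.4 FPKM in CKO and 33.3, 31.9 and 39.5 FPKM in WT. That rescaling moved the median of all genes to −0.10 and the median of the members to 0.13. Without CKO replicate 2 the median of the members was 0.0024. The part of blood cells in the values of the members was not tested.

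**Figure D3:**
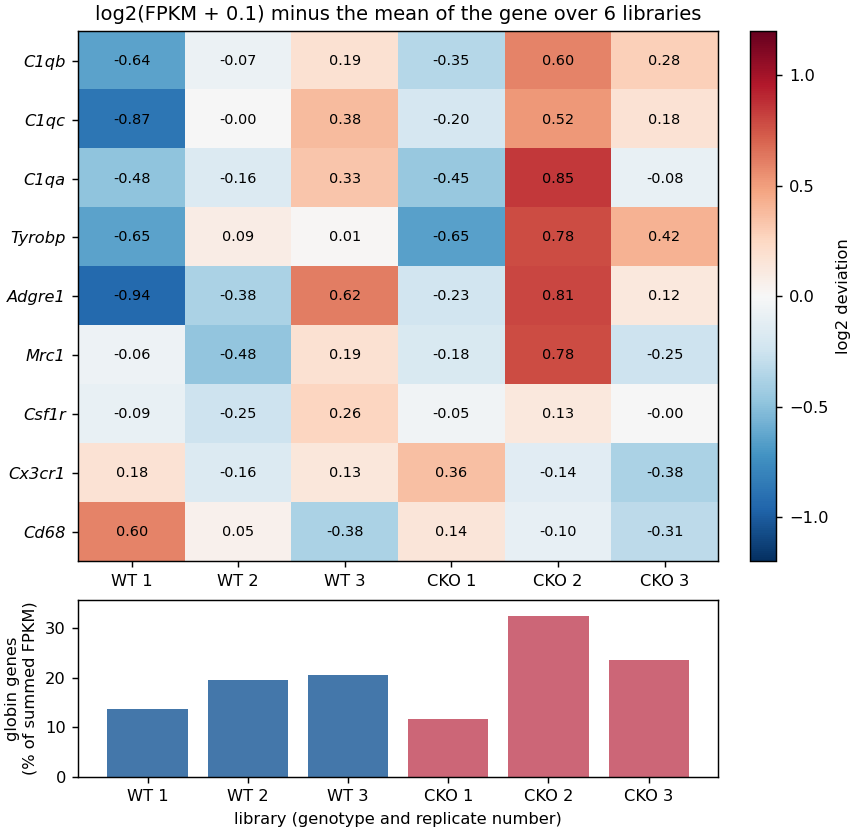
Above, log2(FPKM + 0.1) of each member in each library minus its mean over the 6 libraries. Below, the share of summed FPKM from 7 globin genes in WT (blue) and CKO (red), where CKO replicate 2 has both the largest share (32.4%) and the highest values of 6 members, while *Cd68* is highest in WT replicate 1.

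Beside the members, 32 further genes of these cells were read, of which 18 reached a mean of 0.5 FPKM and were tested. None passed with or without the block (0 of 18), and 15 had a higher and 3 a lower mean in CKO, with a median of 0.23, which was −0.03 without CKO replicate 2. *Arhgdib* (10.3 FPKM), *Lyz2* (8.93 FPKM) and *Coro1a* (6.79 FPKM) were the most abundant, and the last 2 encode lysozyme and an actin-binding protein of blood cells. *Lyz2* had 5.14, 6.83 and 9.23 FPKM in WT and 3.90, 17.0 and 11.5 FPKM in CKO, again highest in CKO replicate 2 and lowest in CKO replicate 1. *Ccl4*, a chemokine, had the largest difference, with 1.34, 0.380 and 0.556 FPKM in WT and 1.59, 1.27 and 1.40 FPKM in CKO. WT replicate 1 lay between the CKO values (0.98, adjusted *p* = 0.561 with limma, 0.0541 with the block). *Folr2*, a folate receptor of resident macrophages, had the lowest difference at −0.29 (adjusted *p* = 0.855, limma), and 63.1% of its exon bases are shared with an antisense gene. *Fcer1g*, the signalling chain of Fc receptors, was the single gene of the 18 whose groups did not overlap, against 14.5% of all genes. It had 3.62, 3.25 and 4.04 FPKM in WT and 4.24, 6.39 and 4.99 FPKM in CKO (0.49, adjusted *p* = 0.537, limma), and is named after its values were seen. The summed level of the 32 genes was 47.4 to 57.8 FPKM in WT and 44.6, 80.5 and 61.0 FPKM in CKO. *Cd163*, *Vsig4*, *Ms4a7* and *Siglec1*, also named after their values were seen, stayed under 0.2 FPKM in every library. *Aif1*, *Cybb*, *Ptprc* and *Itgam*, likewise named afterwards, were among the 14 genes not tested, with means of 0.43, 0.37, 0.29 and 0.12 FPKM. *Itgam* shares 68.7% of its exon bases with *Gm49368* on the same strand, and how shared reads were counted was not given.

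Of the markers of other blood cells that the tissue could hold, 3 of 9 neutrophil genes, 2 of 5 monocyte genes, 0 of 6 mast cell genes, 1 of 8 lymphoid genes and 2 of 6 osteoclast genes reached the filter. The most abundant neutrophil genes were *S100a9*, *Mpo* and *S100a8* (1.86, 1.64 and 1.07 FPKM), with differences from −0.19 for *Mpo* to 0.48 for *S100a9*. The monocyte genes tested were *Plac8* (1.77 FPKM, 0.40) and *Chil3* (1.21 FPKM, −0.18), and the lymphoid gene was *Cd79b* (0.868 FPKM, 0.70). *Cd3e*, *Tpsb2* and *Dcstamp*, markers of T cells, mast cells and osteoclasts, were listed at 0 in most libraries and reached at most 0.0388 FPKM. These 3 were picked with their low values in view and do not stand for their lists. Per library, the 6 mast cell genes summed to 0.390 to 1.24 FPKM and the 8 lymphoid genes to 1.78 to 2.27 FPKM. *Acp5*, a phosphatase of osteoclasts and other macrophages, was by contrast at 60.5 FPKM (0.29, adjusted *p* = 0.818, limma), and *Ctsk*, an osteoclast protease, at 1.56 FPKM (−0.59, adjusted *p* = 0.550, limma). The 6 osteoclast genes summed to 51.9 to 57.7 FPKM in WT and 45.6, 89.3 and 72.3 FPKM in CKO, a sum made up mostly of *Acp5*. Like the globin genes, that sum was lowest in CKO replicate 1 and highest in CKO replicate 2. Which cells hold the *Acp5* RNA was not tested. Of megakaryocyte and platelet genes 7 of 8 reached the filter, and 6 of these had a lower mean in CKO, with a median of −0.36. Among those tested, *Gp1bb* shares 91.1% of its exon bases with *Sept5* on the same strand. In 4 of the 7 every CKO library lay below every WT library, against 8.86% of all genes. *Pf4* (11.5 FPKM), *Ppbp* (6.57 FPKM) and *Itga2b* (2.70 FPKM) were the most abundant, and differences ran from −0.82 for *Gp5* to 0.05 for *Gp9*. *Pf4*, platelet factor 4, had 7.46, 14.5 and 13.3 FPKM in WT and 3.68, 17.7 and 12.1 FPKM in CKO. Of endothelial genes 10 of 10 had a lower mean in CKO, with a median of −0.31. *Cdh5* (8.04 FPKM), *Pecam1* (3.99 FPKM) and *Erg* (3.29 FPKM) led in level, and differences ran from −0.54 for *Tie1* to −0.02 for *Tek*. The summed level of the endothelial genes was 31.9 to 40.5 FPKM in WT and 20.9 to 32.4 FPKM in CKO, the lowest in CKO replicate 1. Within numbers 1, 2 and 3 the endothelial median was −0.96, 0.015 and −0.07. No gene of these lists passed with or without the block. Among 8 genes of limb mesenchyme, led by *Twist1*, *Prrx1* and *Prrx2* (97.3, 57.3 and 46.1 FPKM), 6 had a lower mean in CKO, and *Tbx5*, the forelimb T-box factor, passed with the block but not without it (−0.93, adjusted *p* = 0.00734 with the block and 0.358 without, limma), while *Fgf10* had the highest difference at 0.04.

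Of 12 transcription factors of the myeloid program 9 were tested, 7 with a lower and 2 with a higher mean in CKO, and the median was −0.30. *Spi1*, which encodes PU.1, had 0.865, 0.930 and 0.902 FPKM in WT and 0.800, 0.988 and 0.747 FPKM in CKO, so the WT values lay within the CKO range (−0.09, adjusted *p* = 0.931, limma). *Irf8*, a factor of monocytes and macrophages, was under the filter in every library, at 0.214 to 0.305 FPKM. *Irf5*, a factor of inflammatory gene expression, had 9.87, 12.7 and 11.4 FPKM in WT and 6.52, 7.41 and 8.86 FPKM in CKO. Every CKO library lay below every WT library, as for 2 of the 9 factors tested and 8.86% of all genes. *Irf5* passed with the block but not without it (−0.57, adjusted *p* = 0.0211 with the block and 0.366 without, limma). It shares 411 exon bases (14.1%) with *Tnpo3* on the other strand. *Ikzf1* (5.95 FPKM), a factor of blood cell development, and *Cebpb* (3.14 FPKM), of inflammatory myeloid cells, followed *Irf5* in abundance, and *Cebpb* shares 20.7% of its exon bases with *Tmem189* on the other strand. *Cebpa*, which starts the granulocyte and monocyte program, had the highest difference at 0.38 (adjusted *p* = 0.723, limma).

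The ligands of the macrophage receptors were low. *Csf1*, the growth factor for CSF1R, had 1.28, 1.02 and 1.31 FPKM in WT and 1.22, 0.969 and 0.881 FPKM in CKO (−0.22, adjusted *p* = 0.837, limma). *Il34*, its other ligand, reached at most 0.0856 FPKM, and *Csf2*, which encodes GM-CSF, was listed at 0 in all 6 libraries. *Cx3cl1*, the ligand of CX3CR1, had 0.918, 1.09 and 1.46 FPKM in WT and 1.34, 0.890 and 1.15 FPKM in CKO (−0.03, adjusted *p* = 0.984, limma). *Ccl2*, a monocyte attractant, had 0.585, 1.17 and 0.846 FPKM in WT and 1.07, 1.61 and 0.737 FPKM in CKO (0.34, adjusted *p* = 0.854, limma). Of the 3 ligands tested, *Csf1*, *Cx3cl1* and *Ccl2*, 0 had groups that did not overlap, against 14.5% of all genes.

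Of the partners of *Tyrobp* in signalling through ITAM motifs, 8 of 10 were tested, none passed, and 7 had a lower mean in CKO, with a median of −0.17. Within numbers 1, 2 and 3 that median was −0.52, 0.08 and −0.21. *Syk*, the kinase that binds the adaptor, had 1.24, 0.799 and 0.999 FPKM in WT and 0.909, 0.854 and 0.851 FPKM in CKO (−0.18, adjusted *p* = 0.869, limma). *Ptpn6* (2.61 FPKM), a phosphatase that dampens such signals, and the kinase *Lyn* (2.08 FPKM) were the most abundant, before *Plcg2* (1.77 FPKM), a phospholipase. *Ptpn6* had the highest difference at 0.07 and *Btk*, a kinase, the lowest at −0.41 (adjusted *p* = 0.936 and 0.635, limma). *Trem2*, a lipid receptor that signals through the adaptor, was under the filter with 0.0561 to 0.296 FPKM.

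Of 18 genes for the recognition of dying cells 13 were tested and 0 passed. Their median was −0.03, with 5 higher and 8 lower. *Itgb5* (21.8 FPKM), an integrin chain that binds MFGE8, had 23.9, 25.4 and 23.4 FPKM in WT and 19.7, 18.2 and 20.2 FPKM in CKO. Its groups did not overlap (−0.32, adjusted *p* = 0.480, limma), and neither did those of *Mfge8* (13.4 FPKM), *Tyro3* and *Itgb3*, all lower in CKO, against 8.86% of all genes lower without overlap. *Lrp1* (14.5 FPKM), a receptor for calreticulin on corpses, had −0.02. *Tyro3*, a receptor tyrosine kinase of the same family as MERTK and AXL, had the lowest difference at −0.42 (adjusted *p* = 0.480, and 0.0913 with the block, limma). *Megf10*, an engulfment receptor, had the highest at 0.54 (adjusted *p* = 0.765, limma).

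Of 13 genes of the engulfment machinery 11 were tested, 0 passed, and the median was −0.05. *Rab7* (69.1 FPKM), *Rac1* (60.6 FPKM) and *Crk* (36.5 FPKM), which act in phagosome maturation, actin growth and adaptor signalling, were the most abundant, and cells of all kinds use them. *Rac1* shares 51.4% of its exon bases with *Daglb* on the other strand. *Dock1*, which activates RAC1, had the lowest difference at −0.26 and *Abca1*, a lipid exporter, the highest at 0.09 (adjusted *p* = 0.724 and 0.922, limma). For enzymes and membrane proteins of the phagolysosome, 19 of 20 were tested, 0 passed, and 12 had a higher and 7 a lower mean, with a median of 0.03. *Lamp1*, a lysosomal membrane protein, had 67.0, 73.2 and 71.2 FPKM in WT and 76.0, 87.8 and 89.1 FPKM in CKO, and its groups did not overlap (0.26, adjusted *p* = 0.650, limma). Of these 19 genes 1 was higher and 1 lower in CKO without overlap, against 14.5% of all genes in either direction. *Psap* (59.4 FPKM), which activates sphingolipid breakdown, and the protease *Ctsb* (39.4 FPKM) came next in level, and *Neu1*, a sialidase, had the lowest difference at −0.36 (adjusted *p* = 0.517, limma). Among 11 genes for signals of dying cells, 10 were tested with 5 higher, 5 lower and 0 passed, and the median was −0.0051. *Cd24a* (396 FPKM) and *Calr* (270 FPKM), which act as signals against and for uptake, and *Tmem30a* (13.3 FPKM), a flippase subunit, were the most abundant. *Tmem30a* had the highest difference at 0.13 and *Panx1*, a channel that releases nucleotides, the lowest at −0.21 (adjusted *p* = 0.855 and 0.739, limma).

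Other genes of the classical complement path were low, apart from *C2* (3.65 FPKM), which shares 42.8% of its exon bases with *Gm20547* on the same strand. The C1q proteases *C1ra* and *C1s1* reached at most 0.0615 and 0.351 FPKM, and *C4b* and *C3* at most 0.0642 and 0.518 FPKM, values chosen for mention after they were seen. Of 18 complement genes outside C1q 9 were tested, 5 higher and 4 lower. *Cfp* encodes properdin, which stabilises the alternative pathway convertase and is made by myeloid cells. It had 6.04, 6.64 and 6.55 FPKM in WT and 3.85, 3.16 and 2.85 FPKM in CKO. Every CKO library was lower, as for 1 of the 9 genes tested and 8.86% of all genes. *Cfp* passed with the block and not without it (−0.95 ± 0.14 (SE without the block), adjusted *p* = 0.00304 with the block and 0.117 without, limma). *Cd59a* (11.6 FPKM), an inhibitor of the membrane attack complex that red cells carry, had 5.97, 9.69 and 11.3 FPKM in WT and 6.35, 21.3 and 14.8 FPKM in CKO. It had the highest difference of the list (0.53, adjusted *p* = 0.818, limma) and, like the globin genes, its highest value in CKO replicate 2. *Masp2* (11.3 FPKM), a protease of the lectin path that shares 54.9% of its exon bases with *Tardbp* on the other strand, had 0.05.

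**Figure D4:**
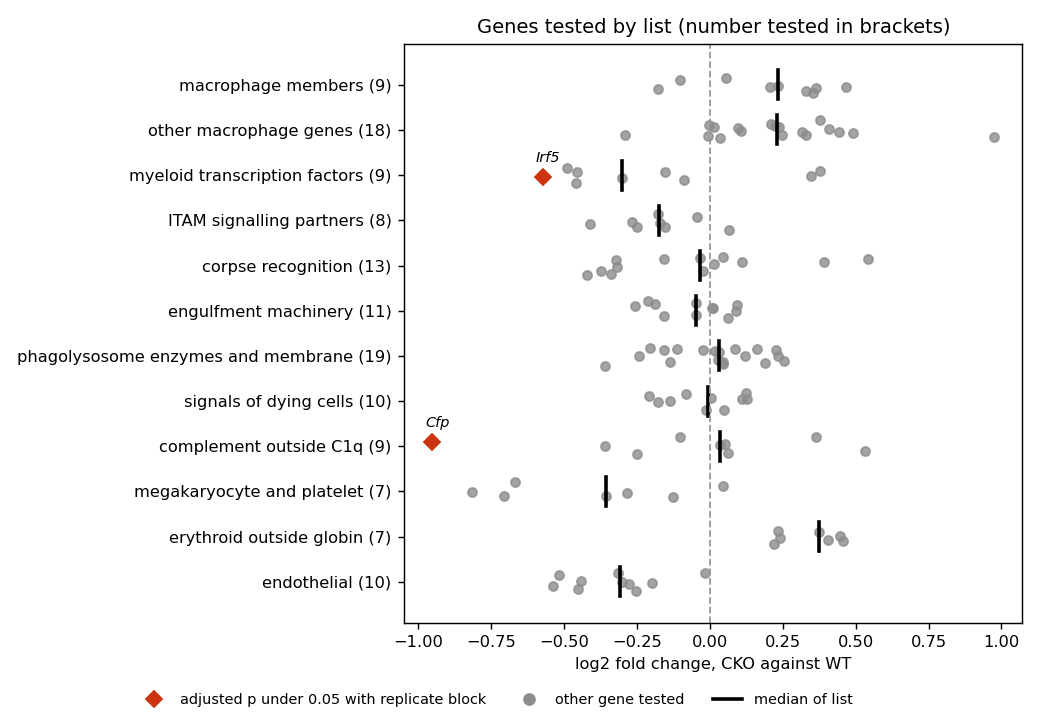
Log2 fold change, CKO against WT, of each gene tested in 12 lists (grey points), with the list's median (black bar) and genes with an adjusted *p* value under 0.05 in limma with the replicate block (red diamonds). The medians of the members and of the other macrophage genes are both at 0.23, and the genes marked are *Irf5* and *Cfp*, both lower in CKO.

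To find genes whose pattern over libraries was most like that of the members, each of the other 12296 genes tested was correlated with the mean of the members' standardised log2 levels. Of these, 65 genes (0.529%) had a Pearson correlation of at least 0.9 over the 6 libraries. The closest were *Acsm3* (0.9998), *Lcp1* (0.996), *Gm12166* (0.994), *AC158605.2* (0.988), *Epm2aip1* (0.988), *Gm10642* (0.987), *Bmpr1a* (0.983), *F13a1* (0.977), *Pafah1b1* (0.9747) and *Slfn9* (0.973). *Lcp1*, the leukocyte actin bundler, and *F13a1*, a coagulation factor chain of macrophages and platelets, belong to the 18 other macrophage genes. Of these 18, 4 had a correlation of at least 0.9, the others being *Cd53* and *Fcgr1*. The median correlation of the 18 was 0.79, against −0.00015 over all genes ranked. With 6 libraries such values are a description, and the standardised pattern is led by CKO replicate 2 (0.93) and WT replicate 3 (0.45).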

How the data were processed

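mRNA-seq of 3 WT and 3 CKO limb bud libraries was used, grouped by the sample titles; the table's KO columns are the CKO libraries. The authors deposited FPKM for 22040 genes. Per the labels' processing notes, HISAT2 2.1.0, cutadapt 2.5 and featureCounts 1.6.3 were used; roles and settings are not given in the sources used here. Genes with a mean of at least 0.5 FPKM (12305) were compared as log2(FPKM + 0.1), which understates changes of low genes, with limma 3.58.1 (lmFit, eBayes with trend) in R 4.3.3, two-sided, with Benjamini-Hochberg adjustment over every gene tested. Fold changes are on that scale.

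GENCODE vM21 (GRCm38) held 99.5% of the identifiers. With its exon lengths, 94.0% to 94.5% of low values per library, and 92.6% of matched genes in all libraries, were whole reads within 0.1, which gave the reads quoted. The divisor recovered from the values was 19146572 and 23848036 in CKO replicates 2 and 3, below their 21190302 and 24624432 reads on the listed genes, and above those reads in the other 4 libraries. The FPKM of CKO replicates 2 and 3 are therefore higher, relative to the others, than division by those reads would make them. Intervals are 95%.

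Deviations from group means over the genes tested correlated at 0.64, 0.44 and 0.27 between libraries numbered 1, 2 and 3. The block by number was run because all were above 0.1. Deviations within a group sum to 0, so likeness of the libraries numbered 1 by itself favours positive values among numbers 2 and 3. Numbers 2 and 3 are not told apart by this check, since crossing them gave 0.49 (WT 2, CKO 3) and 0.31 (WT 3, CKO 2). The check therefore does not establish their pairing, which every result with the block assumes. The study describes the 3 libraries of each group as biological replicates. The labels do not say what a shared number stands for, and *p* values may measure technical spread in part.

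The genes named are the members, the ligands, *Spi1*, *Irf8*, *Trem2* and *Syk*, the 10 genes most like the members, and of each other list the genes past the test, the 3 most abundant and those with the highest and lowest difference, except 1 gene that is not reported here. Beyond this rule, some genes, among them *Cd163*, *Aif1* and *Cd3e*, were picked with their values in view. Members and lists were chosen with earlier results of these data known. Alternatives comprised pseudocounts, filters, scalings, the block, voom on recovered reads, and each library left out.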

Additional observations from a re-analysis of the deposited data

How the results depend on the processing

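Over 20 alternatives to the comparison without the block, 2 of them added after the data were seen (the replicate block with rescaling outside globin, and with voom on recovered reads), 0 members passed, except 1, *Tyrobp*, on replicates 2 and 3 alone. The choice of replicates 2 and 3 also followed from correlations between these libraries. The replicate block changed no call among the members, and moved the number of genes passing over the whole table from 7 higher and 1 lower to 139 higher and 207 lower. On replicates 2 and 3 alone, 867 were higher and 984 lower. Leaving out 1 library gave 1 to 10 higher and 0 to 13 lower. With block and rescaling 95 were higher and 375 lower, and with block and voom 112 and 668. With an ordinary linear model 0 genes passed (1108 at an unadjusted *p* value of 0.05), and rescaling outside globin alone gave 4 higher and 0 lower.

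The median log2 difference of the members ran from 0.0024 (without CKO replicate 2) to 0.49 (without CKO replicate 1), and that of the other macrophage genes from −0.03 to 0.36 without the same libraries. Signs turned for *Csf1r* (−0.051 rescaled outside globin with or without the block, −0.043 with voom, −0.055 with voom and block). Without single libraries, *Csf1r* ran from −0.058 to 0.20, *Cx3cr1* from −0.31 to 0.063, *Mrc1* from −0.10 to 0.41, *C1qa* from −0.17 to 0.49, *C1qc* from −0.022 to 0.60, *Cd68* from −0.41 to 0.075, *Adgre1* from 0.12 to 0.89, *C1qb* from 0.12 to 0.62 and *Tyrobp* from 0.065 to 0.78, the sign turning without WT replicate 1 (*C1qc*, *Cd68*), WT replicate 2 (*Csf1r*), CKO replicate 2 (*Mrc1*, *C1qa*) or CKO replicate 3 (*Cx3cr1*). The cause was not tested. Rescaling outside globin and voom moved the median of all genes to −0.10 and −0.09, so that differences are to be read relative to it. Between 30 and 682 reads per member and library set the counting error.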
